A study of Mus musculus with 12 samples.

Results

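Small nucleolar RNAs (snoRNAs) are short non-coding RNAs that work in the nucleolus, where ribosomal RNA is made. Box H/ACA snoRNAs, named Snora, guide the conversion of chosen uridines to pseudouridine and ride with the proteins Dkc1, Gar1, Nhp2 and Nop10. Box C/D snoRNAs, named Snord, guide 2'-O-methylation and ride with Fbl, Nop56, Nop58 and Snu13. Most are cut out of the introns of other genes, many of which encode ribosomal proteins or are long non-coding RNAs of the Snhg group, and the level of a snoRNA can differ from that of the gene that contains it. The genes described here are all those with a probe set of a single symbol that starts with Snora or Snord followed by a digit. There were 73 of them among 22180 genes with such a probe set, 26 box H/ACA and 47 box C/D genes.

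Epithelial cells were sorted from the prostates of male mice, wild-type and hormone-naïve, and their RNA was read on 12 one-colour arrays. All cells were sorted as negative for CD45, CD31 and Ter119, surface markers of immune, endothelial and erythroid cells. The 3 gates were Sca1-high (high Sca1, positive for CD49f), basal (intermediate Sca1, positive for CD49f) and luminal (low Sca1, low CD49f), and each was sorted into LY6D+ and LY6D- cells. Sca1-high libraries came from mice 1 and 5, basal libraries from mice 3 and 5 and luminal libraries from mice 4 and 5, which gave 6 groups of 2 libraries. Mouse 5 therefore gave a library to every group, and libraries of a mouse are not independent, although the main fit treats them so. In such bulk libraries, fewer cells of a type and less RNA per cell cannot be told apart.

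Values are log2 signals, so a difference of 1 is a doubling. A signal depends on the probes as well as on the RNA, and one gene's signal is not set against another's as an abundance here. A gene entered the test if its signal exceeded 2.98, the lower quartile of all values, on 2 arrays or more. The test was limma with a mean per group, and a call is an adjusted p of at most 0.05 after Benjamini-Hochberg adjustment over 20135 genes. Differences are given ± SE, and gate means ± SD over 4 libraries of 2 mice (n = 4).

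Markers of the gates gave signals, together with markers of other cells. The mean over the 5 basal epithelial markers (Krt14 among them) lay between 6.21 and 7.57 in Sca1-high, 7.5 and 8.71 in basal and 5.11 and 7.21 in luminal libraries. The mean over 3 luminal markers lay between 5.45 and 8.81 in Sca1-high, 8.0 and 9.58 in basal and 8.77 and 9.65 in luminal libraries. The 5 immune markers averaged 4.52 to 4.99 in basal against 7.07 to 8.93 in luminal libraries, and 5.10 to 5.97 in Sca1-high libraries. The 4 endothelial markers averaged 7.11 to 9.97 in Sca1-high and 4.65 to 9.11 in basal libraries, against 4.10 to 5.03 in luminal libraries. None of these markers lay below the quartile on all 4 libraries of a gate. On the first principal component of the genes tested, 3 libraries of mouse 5 stood apart. Their scores were 71.5 and 73.1 for the LY6D+ and LY6D- basal cells and 32.9 for the luminal LY6D- cells, while no other library exceeded 18.5.

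Of the 73 genes, 66 passed the filter, 23 Snora (88.5%) and 43 Snord (91.5%), close to the 90.8% of all genes and above the 67.2% of 472 microRNA genes. On all 12 arrays, 34 genes lay above the quartile, 16 Snora and 18 Snord. Snora2b, Snora34, Snord1b and Snord61 lay above it on 0 arrays. In the reference gene table, 70 of the 73 lie within another gene. The exceptions are Snord13, which guides acetylation of small-subunit rRNA, Snord118 (U8), needed to process large-subunit rRNA, and Snord89. The containing genes encode ribosomal proteins for 18 members and are Snhg genes or Gas5 for 13. The table gives a median length of 118.5 nt to Snora genes, with a range of 56 to 205, and of 68 nt to Snord genes, with a range of 48 to 221.

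Sequences are shown for a member and for the starts of the 2 containing genes that the results turn on. Only that of the member bears on what its probe sets and annotation can separate. Snora19 had 2 probe sets whose values were identical on all 12 arrays. RefSeq (GRCm38.p6) places it inside the microRNA hairpin Mir3084-2, within Eif3a, and a second hairpin of that chromosome has the same 69 nt. Capitals mark the 56 nt that RefSeq assigns to Snora19, read at Mir3084-2.
Mir3084-2, chr19:60774329-60774397, minus strand: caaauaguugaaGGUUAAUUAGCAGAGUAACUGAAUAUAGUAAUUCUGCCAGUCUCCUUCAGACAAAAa
Mir3084-1, chr19:24942235-24942303, minus strand: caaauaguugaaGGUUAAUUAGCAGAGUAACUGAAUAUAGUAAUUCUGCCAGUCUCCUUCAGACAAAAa

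Genes for ribosomal proteins and snoRNA hosts often begin transcription within a run of pyrimidines (C or T), the mark of a terminal oligopyrimidine (TOP) transcript. The starts of Rps12, which contains Snora33, and of Snhg12, which contains Snora44, are shown from 40 bases before to 20 bases from the annotated start on, in GRCm38.p6. Capitals mark a run of at least 8 bases of only C or T, on the gene's strand. The run reaches into the 15 bases on either side of the start but may extend past them.
Rps12, chr10:23787190-23787249, minus strand: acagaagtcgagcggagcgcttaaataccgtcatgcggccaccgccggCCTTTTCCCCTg
Snhg12, chr4:132308638-132308697, plus strand: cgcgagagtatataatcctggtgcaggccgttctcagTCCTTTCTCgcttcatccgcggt
Such a run stood in 13 of the 48 containing genes that had a window (27.1%), against 20.04% of 27025 genes. A run of letters is a description of this window and not evidence of a TOP transcript.

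Basal cells differed from luminal cells in 2 of the 66 tested snoRNA genes, Snora33 and Snora44, both box H/ACA and both higher in basal cells. That is 3.03% of the members, where 0.417% of all genes tested were called. Without adjustment, 9 members had a p under 0.05 (13.6%, against 9.44% of all genes), and in 3 the basal and luminal libraries did not overlap (4.55%, against 5.75% of all genes). Those 3 were Snora23, Snord85 and Snord87, all higher in basal cells. No Snord gene was called, and 4 of 43 had an unadjusted p under 0.05.

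Snora44 is one of 4 members within the long non-coding RNA Snhg12. In basal cells its signal was 8.36 and 9.73 in LY6D+ and 7.48 and 6.93 in LY6D- libraries (mice 3 and 5). In luminal cells it was 4.51 and 4.45 in LY6D+ and 5.41 and 7.06 in LY6D- libraries (mice 4 and 5). In Sca1-high cells it was 5.09 and 4.34 in LY6D+ and 5.56 and 4.59 in LY6D- libraries (mice 1 and 5). All basal libraries stood above all others but one, the luminal LY6D- library of mouse 5, which passed the lowest basal library. The gate means were 8.12 ± 1.22 in basal and 5.36 ± 1.22 in luminal cells, and Snora44 was higher in basal cells by 2.77 ± 0.44 (adjusted p = 0.0402, limma). No mouse but mouse 5 gave libraries to several gates, so a fixed block for mouse takes a gate difference from mouse 5 alone. With mouse as a fixed block the difference was 2.58 and missed the threshold (adjusted p = 0.125). It also missed it without the 3 mouse 5 libraries that stood apart, at 2.97 (adjusted p = 0.162), and without any 1 of 8 single libraries (differences of 2.36 to 3.18 over the 12 omissions, adjusted p at most 0.125). The Sca1-high libraries did not overlap the basal ones, and their mean of 4.89 ± 0.54 was lower by 3.23 ± 0.44, short of the threshold (log2 difference -3.23, adjusted p = 0.0955).

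Snhg12 itself was 6.28 and 8.32 in basal LY6D+, 5.58 and 8.10 in basal LY6D-, 4.84 and 4.89 in luminal LY6D+ and 4.43 and 6.74 in luminal LY6D- libraries. Its basal minus luminal difference of 1.84 ± 0.84 missed the threshold (adjusted p = 0.546), and among luminal libraries Snhg12 and Snora44 were highest in the same one. The other members within Snhg12 did not share the pattern of Snora44. Snora61 was nearly flat, with a range of 0.90 over the 12 libraries. Snora16a lay between 3.85 and 5.51 in 11 libraries and at 9.85 in Sca1-high LY6D- cells of mouse 1, the library in which Snord99, at 8.55, was also highest. Snhg12 was at 7.92 there, its highest value outside the basal gate.

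Snora33, within the ribosomal protein gene Rps12, was high in LY6D+ basal cells. It had 9.56 and 8.47 in LY6D+ basal libraries (mice 3 and 5), against 4.74 and 5.21 in LY6D- basal libraries. The 8 other libraries lay between 4.79 and 5.80. The groups did not overlap, and both mice had the higher value in LY6D+ cells. With 2 libraries against 2 that is easily met, and the share of all genes that met it was not counted. The LY6D+ minus LY6D- difference was 4.04 ± 0.42 (adjusted p = 0.0435, limma), which made Snora33 1 of 2 genes called in that comparison (0.00993% of all genes) and the only one of 66 members. In the mean over both basal groups it was 7.0 ± 2.38, against 5.05 ± 0.33 in luminal cells, a difference of 1.95 ± 0.30 (adjusted p = 0.0351). The LY6D+ basal libraries stood above the highest luminal library (5.5), and the LY6D- ones did not.

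Both calls of Snora33 rested on 1 of its 2 probe sets. The dimmer one read 8.35 and 3.5 in LY6D+ basal libraries (mice 3 and 5), against 2.55 and 2.0 in LY6D- basal libraries. It also read 7.0 in Sca1-high LY6D- and 4.53 in luminal LY6D- cells of mouse 5, where the brighter probe set gave 5.32 and 4.79. With the mean of both probe sets the LY6D difference was 3.84 (adjusted p = 1.00) and the basal minus luminal difference 1.64 (adjusted p = 0.453). With mouse as a fixed block the adjusted p was 0.536 for the LY6D difference of 4.04. It was 0.164 for a gate difference of 1.91, that of mouse 5 alone. Without the 3 mouse 5 libraries that stood apart, they were 4.82 (adjusted p = 0.274) and 1.93 (adjusted p = 0.195). Omitting single libraries ended the LY6D call in 10 of 12 cases and the gate call in 7. Over all 12 omissions the LY6D difference was 3.49 to 4.58 and the gate difference 1.68 to 2.22. Rps12 did not follow Snora33. Its signal was 11.47 and 11.61 in LY6D+ basal libraries, against 10.60 and 11.65 in LY6D- basal libraries, and lowest at 9.13 in Sca1-high LY6D+ cells of mouse 5.

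**Figure D1:**
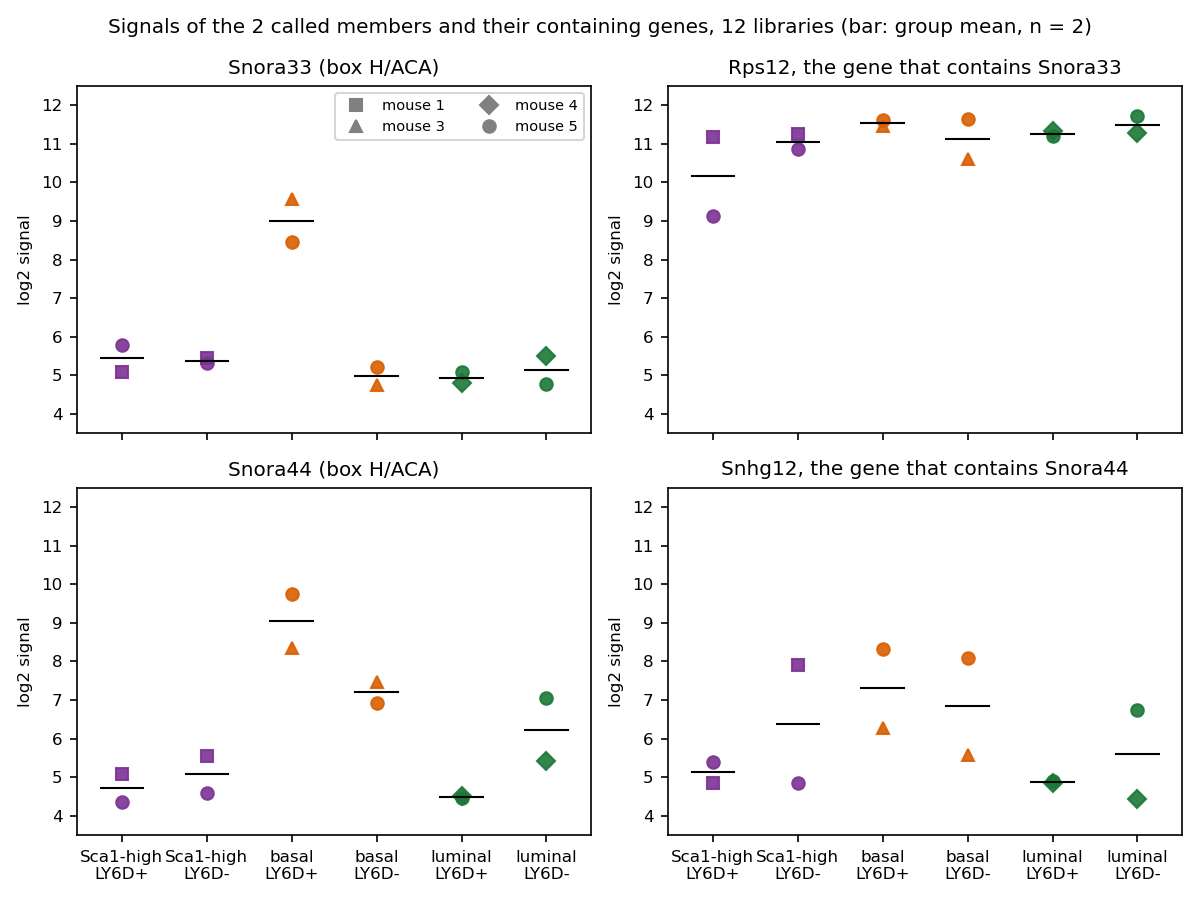
Log2 signal (y axis) of Snora33 and Snora44 and of the genes that contain them in each of the 12 libraries, by group (x axis); symbols mark the mouse and bars the mean of 2 libraries. Snora33 stands high in the 2 LY6D+ basal libraries at 9.56 and 8.47 while Rps12 stays between 9.13 and 11.71, and Snora44 stands high in the 4 basal libraries and in 1 luminal library.

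Other members had most of their high values in the basal gate, without a call. Snora23, within the nuclear import gene Ipo7, had 10.75, 9.63, 10.37 and 8.52 in the basal libraries, against 2.63, 6.59, 6.99 and 6.66 in the luminal libraries. The gates did not overlap, and the difference of 4.10 ± 1.11 had an adjusted p of 0.224. Ipo7 ran the same way, with a difference of 2.19 ± 0.85 (adjusted p = 0.435). Snora23 was also at 2.38 in Sca1-high LY6D+ cells of mouse 5, where the other Sca1-high libraries lay between 7.27 and 8.63.

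Snora75, within the nucleolin gene Ncl, was high in 2 of 4 basal libraries that shared neither mouse nor LY6D class. It had 2.03 and 7.5 in basal LY6D+ and 10.20 and 4.34 in basal LY6D- libraries, against 1.58 to 2.25 in luminal libraries (difference 4.01 ± 1.38, adjusted p = 0.363). Snord82, also within Ncl, was at 6.76 and 7.15 in the basal libraries of mouse 5, against 3.64 and 2.43 in those of mouse 3. Ncl itself lay between 9.72 and 11.44 in all 12 libraries.

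Snord87, within Snhg6, divided by mouse inside the basal gate. It was at 7.29 and 7.23 in LY6D+ and LY6D- basal cells of mouse 5, against 2.54 and 2.60 in those of mouse 3. The luminal libraries lay between 2.07 and 2.53 and the Sca1-high libraries between 2.64 and 3.49, mouse 5 included. Basal and luminal libraries did not overlap, and the difference of 2.60 ± 1.11 had an adjusted p of 0.498. Only mouse 5 gave libraries to several gates. With mouse as a fixed block, a gate difference is therefore that of mouse 5 alone. For Snord87 it was 5.13, which passed (adjusted p = 0.00378). Without the 3 mouse 5 libraries that stood apart, the difference was 0.16. The part of those libraries in the result was not tested further. Snord104 was likewise at 7.69 and 8.41 in the basal libraries of mouse 5, but at 2.64 and 5.92 in those of mouse 3, with 6.03 in the luminal LY6D- library of mouse 5 and 2.76 to 3.13 in the other luminal libraries.

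Members lower in basal cells did not pass the test. Snora28, within the translation factor gene Eif5, was between 1.79 and 2.79 in the basal libraries, against 5.02, 1.66, 4.25 and 7.05 in the luminal libraries (difference -2.35 ± 0.75, adjusted p = 0.318). The luminal LY6D+ library of mouse 5 was the lowest of all 12. Snord66, within Eif4g1, averaged 3.18 ± 0.30 in basal and 4.25 ± 0.75 in luminal cells (difference -1.06 ± 0.29, adjusted p = 0.231). Snora30, within the chromatin remodeller gene Srcap, averaged 5.84 ± 2.19 in basal and 8.13 ± 1.20 in luminal cells, with its lowest values, 3.34 and 4.74, in the basal libraries of mouse 3.

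As classes, the members showed no common direction between these gates. The median basal minus luminal difference was -0.21 over Snora genes, of which 8 of 23 were positive, and -0.10 over Snord genes, of which 21 of 43 were positive. Over all genes tested it was -0.03. The differences spanned -2.35 to 4.10 for Snora genes and -3.00 to 2.60 for Snord genes.

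Sca1-high cells were compared with luminal cells next, with the same 4 luminal libraries. No member was called, where 0.139% of all genes were, and 4 members had an unadjusted p under 0.05 (6.06%, against 8.41% of all genes), all lower in Sca1-high cells. In 2 members the gates did not overlap (3.03%, against 6.04% of all genes), Snora73a, which was lower, and Snord87, which was higher. Snora73a and Snora73b lie within Snhg3 and are near-identical copies of the E1 (U17) snoRNA, which is needed to process small-subunit rRNA, so the values of each alone are uncertain. Snora73a had 3.58, 3.57, 4.14 and 3.49 in Sca1-high libraries, against 7.22, 4.85, 4.33 and 4.97 in luminal libraries (difference -1.65 ± 0.52, adjusted p = 0.412). Snora73b ran in parallel, with its highest value of 6.28 in the same luminal LY6D+ library of mouse 4 and a difference of -0.99 ± 0.38 (adjusted p = 0.532).

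The class medians of Sca1-high minus luminal cells were 0.10 over Snora and -0.21 over Snord genes, against 0.07 over all genes. The widest differences in each direction rested on 1 or 2 libraries. Snora74a (U19, within Snhg4) was at 10.76 in Sca1-high LY6D- cells of mouse 1 and between 3.05 and 5.07 in the other 11 libraries. Its Sca1-high minus luminal difference of 2.09 (adjusted p = 0.698) was 0.21 without that library and 3.97 without the Sca1-high LY6D- library of mouse 5, when it passed the test (adjusted p = 0.0384). Snord37, within the elongation factor gene Eef2, was at 8.71 in LY6D+ luminal cells of mouse 5 and 11.16 in LY6D- luminal cells of mouse 4. The 10 other libraries lay between 1.83 and 5.17, while Eef2 stayed between 11.07 and 12.13 in all.

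Between Sca1-high and basal cells, which share the surface marker CD49f, no member was called (0.00993% of all genes). An unadjusted p under 0.05 was found for 7 members (10.6%, against 9.83% of all genes), 5 of them lower in Sca1-high cells. A fixed block for mouse gave 1 call, Snord87, at -4.01 (adjusted p = 0.0271). That difference is again of mouse 5 alone, with its basal libraries described above. The libraries did not overlap in 4 members (6.06%, against 7.04% of all genes), Snora44 and Snora73a, lower in Sca1-high cells, and Snora30 and Snord15a, higher in them. Snora30 had 9.22, 8.29, 10.95 and 8.41 in Sca1-high libraries, against 3.34, 8.18, 4.74 and 7.09 in basal libraries (difference 3.38 ± 1.05, adjusted p = 0.370). Srcap ran the other way, at -0.82 ± 0.46 (adjusted p = 0.562). Snord15a, within Rps3, averaged 4.84 ± 0.88 in Sca1-high and 3.92 ± 0.19 in basal cells, with 6.15 in the Sca1-high LY6D+ library of mouse 1 (difference 0.92 ± 0.34, adjusted p = 0.457). Without that library the Snord15a difference was 0.54. The class medians were 0.07 over Snora and -0.11 over Snord genes, against 0.11 over all genes.

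**Figure D2:**
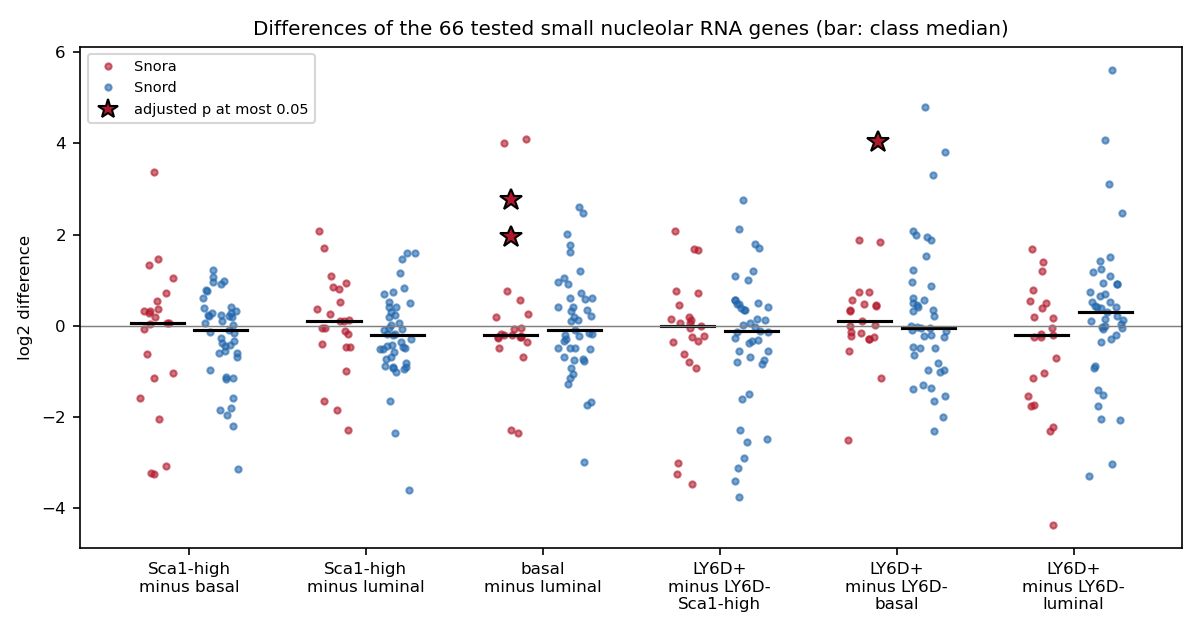
Log2 differences (y axis) of the 66 tested snoRNA genes in the 3 gate comparisons and in LY6D+ minus LY6D- cells of each gate (x axis); points are genes, bars class medians and stars the calls. The points lie on both sides of 0 in every comparison, the class medians stay between -0.21 and 0.31, and the 3 stars are Snora33, in both its comparisons, and Snora44.

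LY6D is a surface protein by which each gate was divided, so that cells with and without it could be compared within a mouse. Apart from Snora33 in basal cells, no snoRNA gene was called in any LY6D comparison. In luminal cells 0 members and 0% of all genes were called. There, 9 members had an unadjusted p under 0.05 (13.6%, against 3.56% of all genes). In Sca1-high cells 0 members and 0% of all genes were called, with 5 members under 0.05 unadjusted (7.58%, against 2.41%). In basal cells 5 members were under 0.05 unadjusted (7.58%, against 2.2%). Over the 3 gates together 0 members and 0% of all genes were called, with 6 members under 0.05 unadjusted (9.09%, against 2.62%).

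The smallest p over the 3 gates other than that of Snora33 was that of Snord65, 1 of 3 members within the non-coding gene 2410006H16Rik. In luminal cells it had 5.01 and 5.09 in LY6D+ libraries (mice 4 and 5), against 9.38 and 6.79 in LY6D- libraries. In Sca1-high cells it had 4.63 and 4.60 in LY6D+ libraries (mice 1 and 5), against 7.0 and 8.06 in LY6D- libraries. In basal cells it had 6.37 and 5.65 in LY6D+ libraries (mice 3 and 5), against 5.43 and 5.90 in LY6D- libraries. LY6D+ and LY6D- libraries did not overlap in the luminal and Sca1-high gates and did in the basal gate. With 2 libraries against 2 this is easily met, and its share over all genes was not counted. The difference over the gates was -1.87 ± 0.41 (adjusted p = 1.00), with -3.03 ± 0.71 in luminal (adjusted p = 0.938) and -2.91 ± 0.71 in Sca1-high cells (adjusted p = 1.00). The other members within the same gene had other patterns. Snord49a was at 8.98 in Sca1-high LY6D- cells of mouse 1 and at 5.52 or less elsewhere, and Snord49b was highest at 8.82 in basal LY6D+ cells of mouse 3.

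Snord83b, within the ribosomal protein gene Rpl3, had its highest value of each gate in LY6D+ cells. It had 8.84 and 5.61 in luminal LY6D+ libraries (mice 4 and 5), against 4.09 and 4.14 in luminal LY6D- libraries, and 8.05 and 5.54 in basal LY6D+ libraries (mice 3 and 5), against 4.41 and 5.21 in basal LY6D- libraries. In Sca1-high cells it had 6.69 and 5.24 in LY6D+, against 4.82 and 5.10 in LY6D- libraries. LY6D+ exceeded LY6D- cells in all 6 pairs, by 2.03 ± 0.61 over the gates (adjusted p = 1.00). The share of all genes with such pairs was not counted, and Snord83b was named for its small unadjusted p. Snora47, within Zbed3, was between 5.73 and 5.89 in luminal LY6D+ cells, against 6.59 and 7.34 in luminal LY6D- cells (difference -1.16 ± 0.40, adjusted p = 1.00). Snord73b, which RefSeq lists as a small nuclear rather than a small nucleolar RNA, had 2.95 and 2.73 in basal LY6D+, against 3.72 and 4.75 in basal LY6D- libraries (difference -1.39 ± 0.43, adjusted p = 1.00).

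Some wide LY6D differences came with wide differences between mice. Snord47, within Gas5, had 6.55 and 10.17 in luminal LY6D+ libraries (mice 4 and 5), against 1.65 and 3.83 in luminal LY6D- libraries. That difference of 5.62 ± 2.33 had an adjusted p of 1.00. Over all libraries Snord47 spanned 1.65 to 10.17, and it differed between the mice of the Sca1-high LY6D+ group as well (2.17 in mouse 1 and 8.62 in mouse 5). Snord69, within the nucleolar GTPase gene Gnl3, was at 10.81 in the basal LY6D+ library of mouse 3 and 3.80 in that of mouse 5, against 2.70 and 2.31 in basal LY6D- libraries (difference 4.80 ± 1.88, adjusted p = 1.00). Without the library of mouse 3 at 10.81 the Snord69 difference was 1.30. Snord22 (U22, within Snhg1), needed for small-subunit rRNA maturation, had 4.69 and 3.95 in luminal LY6D+, against 7.76 and 5.03 in luminal LY6D- libraries (difference -2.08 ± 0.97, adjusted p = 1.00). Without the luminal LY6D- library of mouse 4 the Snord22 difference was -0.72.

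The LY6D difference was also compared between gates. No member was called in any of the 3 pairs of gates, and 0% of all genes were. The unadjusted count was 7 members for basal minus luminal (10.6%, against 2.45% of all genes), 1 for Sca1-high minus luminal (1.52%, against 2.92%) and 6 for Sca1-high minus basal (9.09%, against 2.36%). For Snora33 the LY6D difference was larger in basal than in luminal cells by 4.24 ± 0.60 (adjusted p = 0.326) and smaller in Sca1-high than in basal cells (difference -3.98 ± 0.60, adjusted p = 0.830). Its LY6D difference is thus not shown to differ between gates.

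Signals of these genes spread far between single libraries. The median range over the 12 libraries was 4.04 for all 73 members, 3.95 for Snora and 4.04 for Snord genes, against 1.16 for all 22180 genes and 1.30 for the 472 microRNA genes. A range of 4 or more was found in 37 members (50.7%), against 3.61% of all genes and 4.87% of microRNA genes. In 18 members (24.7%) the highest library stood at least 2 above the second, 7 Snora and 11 Snord, against 1.02% of all genes and 4.45% of microRNA genes. The median difference between the 2 mice of a group was 0.639 for members, against 0.345 for all genes. These limits of 4 and 2 were chosen after the values were seen.

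The high libraries were not the same from gene to gene. Of the 18 members with 1 library apart, 4 had it in Sca1-high LY6D- cells of mouse 1 and 4 in basal LY6D+ cells of mouse 5. Of all genes with 1 library apart, 6.64% had it in the first of these libraries, 8.41% in the second and 31.0% in luminal LY6D- cells of mouse 5, which held 1 member. None had it in Sca1-high LY6D+ cells of mouse 5 or in basal LY6D- cells of mouse 5, and the other libraries had 1 or 2 each. Snora69 (within Rpl39) was at 8.51 in basal LY6D+ cells of mouse 5 and at 2.66 or less elsewhere. Snord110, within the box C/D protein gene Nop56, was at 9.88 in luminal LY6D+ cells of mouse 4 and at 4.91 or less elsewhere. Snord13, which has a transcript of its own, had 12.29 in Sca1-high LY6D- cells of mouse 1 and 10.87 in luminal LY6D- cells of mouse 4, with a lowest value of 3.69. Snord118 was highest at 9.92 in Sca1-high LY6D+ cells of mouse 1 and at 8.98 in luminal LY6D+ cells of mouse 5.

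Some signals varied little. Snora61 had a range of 0.90 around a mean of 4.85, and Snora19 of 0.63 around 3.17. Snora19 was above the quartile of 2.98 on 9 of 12 arrays, and a signal so near the dim end does not show a steady level of the RNA. The brightest members on average were Snord8 (8.21), Snord23 (7.40) and Snord13 (7.14) among box C/D genes, and Snora30 (7.73), Snora21 (7.69) and Snora23 (7.37) among box H/ACA genes. Snord8, within Chd8, averaged 8.63 ± 0.58 in Sca1-high, 7.85 ± 0.86 in basal and 8.14 ± 0.69 in luminal cells, means that differed by less than the largest of these SDs. Snord23, within the ribosome assembly gene Nop53, lay between 6.62 and 8.32 in all libraries. Snora21, within Rpl23, varied by library, with 5.72 in Sca1-high LY6D- cells of mouse 1 and 5.29 in luminal LY6D+ cells of mouse 5 against a highest value of 9.46 in luminal LY6D- cells of mouse 4.

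**Figure D3:**
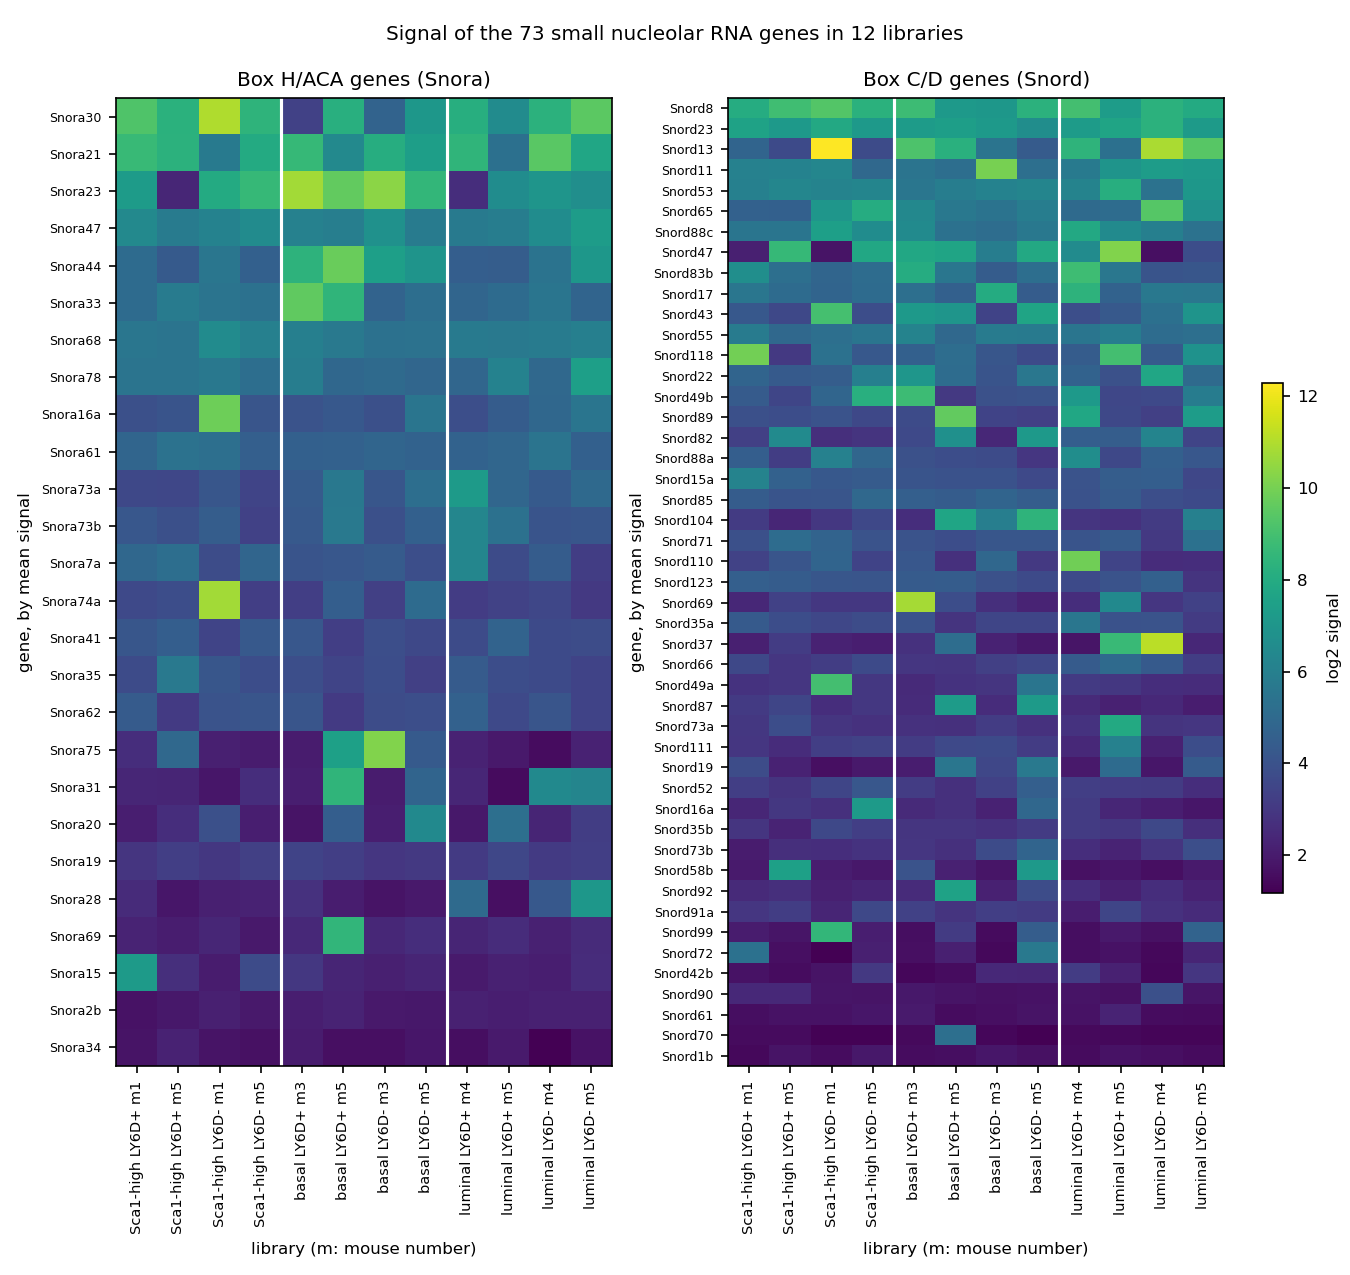
Log2 signal (colour scale) of the 26 Snora and 47 Snord genes (rows, ordered by mean signal) in the 12 libraries (columns, by gate and LY6D class; m is the mouse number). Bright cells are scattered: most bright cells of a row lie in 1 or a few libraries, such as 12.29 for Snord13 in Sca1-high LY6D- cells of mouse 1, and differ from row to row.

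**Figure D4:**
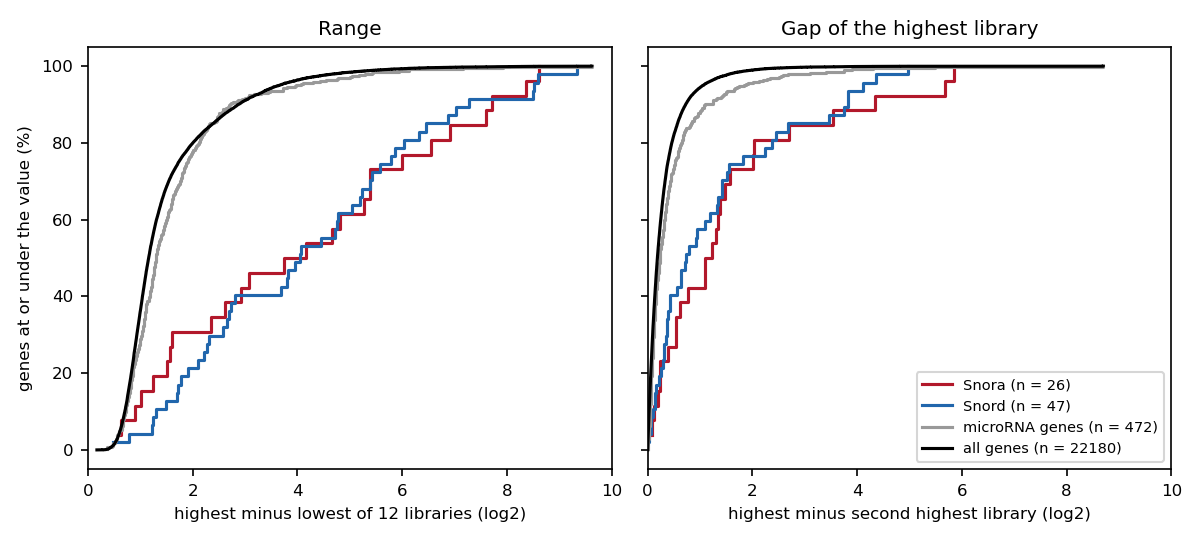
Share of genes (y axis, percent) at or under a given range over the 12 libraries (left, log2) and at or under a given gap between the highest and the second highest library (right, log2), for Snora, Snord, microRNA and all genes. The Snora and Snord curves run together and lie far right of both others, with 50.7% of members at a range of 4 or more against 3.61% of all genes.

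The members were also set beside their containing genes. Of 54 tested members with a measured containing gene (42 such genes, so some members share one), 41 had the wider range, with a median of 4.56 against 2.13 for the containing genes. The highest library was the same in 8. In the gate comparisons 28 members had the sign of their containing gene for basal minus luminal, 30 for Sca1-high minus luminal and 27 for Sca1-high minus basal cells. No containing gene was called in a gate comparison. A probe set within an intron can read the pre-mRNA as well as the free snoRNA, and strand is not in the gene table used, so these could not be separated.

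By library, the Snora median was 4.89 in basal LY6D+, 4.83 in basal LY6D- and 4.79 in luminal LY6D- cells of mouse 5, and between 4.11 and 4.73 in the other 9 libraries. These are the 3 libraries that stood apart on the first component. They had the fewest genes above the quartile (18028, 17879 and 17608, against at least 18555) and the lowest microRNA medians (3.75, 3.69 and 3.57, against at least 3.93). Snord medians lay between 3.62 and 4.47, with the 2 highest in the basal libraries of mouse 5 but 3.83 in luminal LY6D- cells of that mouse. Without these 3 libraries the class medians of basal minus luminal cells were -0.11 for Snora and -0.09 for Snord genes, and those of Sca1-high minus basal cells -0.03 and 0.15.

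**Figure D5:**
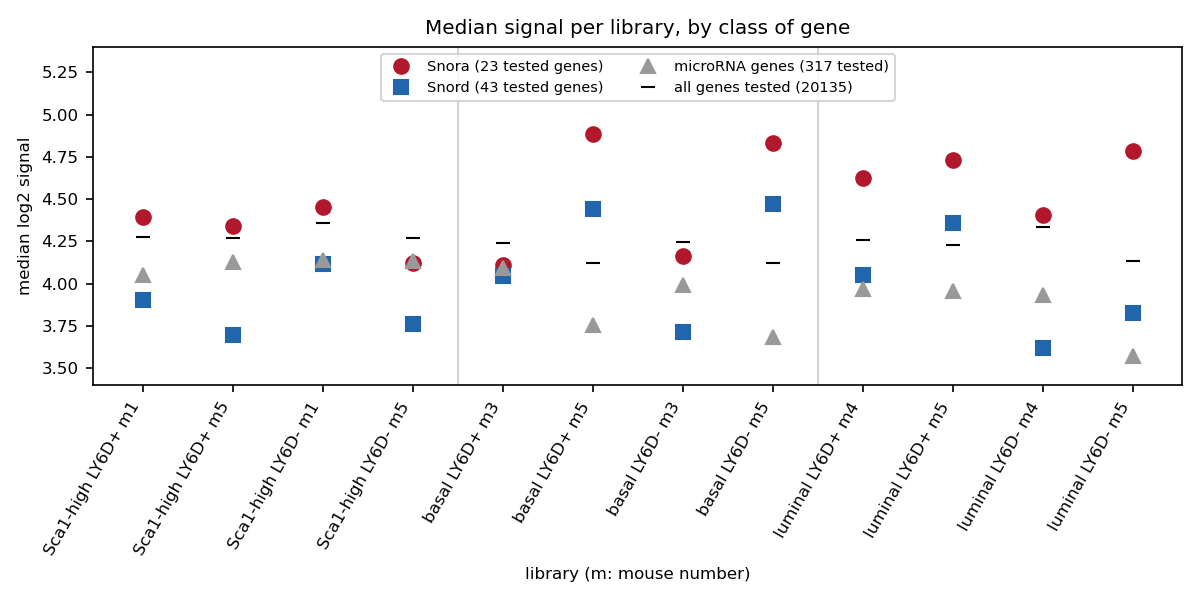
Median log2 signal (y axis) of the tested Snora, Snord, microRNA and all genes in each library (x axis, by gate). The Snora medians of the 3 mouse 5 libraries that stood apart, basal LY6D+ (4.89), basal LY6D- (4.83) and luminal LY6D- (4.79), are the highest, and the microRNA medians of the same libraries are the lowest.

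Genes of the proteins that carry snoRNAs had higher mean signals in basal than in luminal cells, though none passed the test. Of the box C/D core, Nop56, Nop58 and Snu13 were measured, 3 of 3 positive with a median basal minus luminal difference of 1.58, 0 called and 2 at an unadjusted p under 0.05. Of all genes tested, 45.8% were positive, 0.417% were called and 9.44% had an unadjusted p under 0.05. Snu13 had 10.68, 10.08, 10.25 and 10.33 in basal libraries, against 9.29, 9.77, 6.25 and 9.70 in luminal libraries (difference 1.58 ± 0.62, adjusted p = 0.445). All basal libraries lay above all luminal ones, of which that of LY6D- cells of mouse 4 was low. Without that library, an alternative chosen after the values were seen, the Snu13 difference was 0.72 (adjusted p = 0.458) and the median of the box C/D core 0.73. Without the luminal LY6D- library of mouse 5 it was 2.45 and passed (adjusted p = 0.0279). All 4 box H/ACA core genes were positive, with a median of 0.88, 0 called and 2 at an unadjusted p under 0.05. Dkc1, the pseudouridine synthase, had 4.50, 6.53, 3.94 and 5.99 in basal libraries, against 3.85, 3.44, 3.5 and 4.13 in luminal libraries (difference 1.51 ± 0.62, adjusted p = 0.475). Its higher basal values, 6.53 and 5.99, were those of mouse 5. In Sca1-high minus basal cells the medians were -1.41 for the box C/D core and -1.26 for the box H/ACA core, with 0 of 3 and 0 of 4 positive and 0 called.

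Among 15 assembly factors, 10 were positive for basal minus luminal cells, with a median of 0.83, 0 called and 6 at an unadjusted p under 0.05. Among 17 non-coding host genes, 9 were positive, with a median of 0.07 and 0 called. Among 32 genes of rRNA transcription and nucleolar processing, 27 were positive, with a median of 0.77, 1 called and 16 at an unadjusted p under 0.05. The called gene was Utp4, a subunit of the small-subunit processome, at 9.47 ± 0.47 in basal and 6.86 ± 0.46 in luminal cells (difference 2.61 ± 0.38, adjusted p = 0.0322). The call was lost without any 1 of 5 libraries, either luminal LY6D+ library, luminal LY6D- of mouse 5, basal LY6D+ of mouse 3 or basal LY6D- of mouse 5 (differences of 2.34 to 2.88 over the 12 omissions, adjusted p at most 0.0977), and without the 3 mouse 5 libraries that stood apart (2.98, adjusted p = 0.248). In Sca1-high minus basal cells this list had a median of -0.73, with 4 of 32 positive and 0 called. The median over all genes was -0.03 for basal minus luminal and 0.11 for Sca1-high minus basal cells. Without the 3 mouse 5 libraries that stood apart, also an alternative chosen after the values were seen, the basal minus luminal medians were 0.36 for this list, 0.35 for the assembly factors, 0.47 for the box H/ACA core and 1.95 for the box C/D core. The immune markers were lower in basal than in luminal libraries (4.52 to 4.99 against 7.07 to 8.93) and the mean over the endothelial markers ran the other way (4.65 to 9.11 against 4.10 to 5.03). The part of both kinds of marker in these lists, or in the gate differences of the snoRNA genes, was not tested.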

How the data were processed

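Total RNA of sorted cells was cleaned on RNeasy columns, amplified with the NuGEN Ovation V2 kit and biotin-labelled, per the labels' protocols. The deposited values were log2 signals per probe set, and RMA and oligo are listed, without versions, in the submitters' processing notes. The genome build is not given in the sources used here. Values lay between 0.695 and 14.3, with array medians of 3.76 to 3.99. They were used without further normalization, and scanner files were not used here. Arrays give no read depth, so their number limits the precision.

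Of 41345 probe sets, 23521 had a single symbol (22180 genes), 1814 carried more than one and 16010 were absent from the annotation. The reference gene table changed 0 symbols. The 73 members lay on 75 probe sets, and the brightest was kept per gene. Groups came from the labels. Models were fitted in limma 3.58.1 (R 4.3.3) with a mean per group, 6 residual degrees of freedom with 3.28 prior ones added by moderation, and p-values adjusted by Benjamini-Hochberg over the 20135 genes of each contrast. The script was tested on simulated data. The mouse number pairs libraries of an animal. After group means were removed, paired libraries correlated at 0.0220 (luminal), 0.149 (Sca1-high) and 0.407 (basal). No arrays were identical (highest r 0.938). Alternatives were the filter, the choice of probe set, centring, quantile normalization, mouse as a fixed or random block (consensus correlation 0.150), trend and robust moderation, array weights, only the groups compared, and libraries left out.

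The members and gene lists were chosen with earlier results of these data known. Members named by rule were those called and those with the smallest p in each direction and class per contrast. The rule also took the 3 brightest and 3 widest in range of each class, which gave 35 in all. Values of Snora35, Snora68, Snord52, Snord85, Snord88a and Snord88c, which are among the 35, are not given in the text. Others named, such as Snord82, Snord110 and Snora69, were chosen after their values were seen. Of the imprinted box C/D groups, no member had a single-symbol probe set. Where the same mice, or the same luminal or basal libraries, enter several comparisons, those comparisons are not independent.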

Additional observations from a re-analysis of the deposited data

Results flagged for a closer look

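Within each gate, the 4 libraries of both LY6D classes were searched for a highest or lowest one whose gap to its neighbour, as a share of the gate's range, exceeded Dixon's critical value. This held in 9 of 111 sets of 4 libraries, over the named members and the class medians (8.11%). Chance flags about 1 in 20 in such sets, but many of these members were named for a wide range or a small p, so the share cannot be read against that rate. In Sca1-high LY6D- cells of mouse 1, 4 members stood high: Snora16a at 9.85 (others 3.88 to 4.12), Snora74a at 10.76 (others 3.24 to 3.82), Snord13 at 12.29 (others 3.69 to 4.79) and, by a narrow step, Snora73a at 4.14 (others 3.49 to 3.58). In Sca1-high LY6D+ cells of mouse 5, Snord58b stood high at 7.5 (others 1.92 to 2.09), as did Snord37 at 3.16 (others 2.11 to 2.25). In luminal cells, Snora23 stood low at 2.63 in LY6D+ cells of mouse 4 (others 6.59 to 6.99), and Snord104 stood high at 6.03 in LY6D- cells of mouse 5 (others 2.76 to 3.13). In basal cells, Snord47 stood low at 5.90 in LY6D- cells of mouse 3 (others 7.66 to 7.87). No difference of a LY6D contrast between gates passed its test for any member.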

How the results depend on the processing

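The calls depended on the processing. For basal minus luminal, the 2 calls became 1 with the mean of a gene's probe sets, quantile normalization or trend and robust moderation (Snora44), with arrays centred on their medians (Snora33) and with mouse as a fixed replicate block (Snord87). They became 0 with only the groups compared or without the 3 mouse 5 libraries that stood apart. The LY6D call in basal cells (1 gene) became 0 with the mean of the probe sets, quantile normalization, the fixed block, trend and robust moderation, array weights, only the groups compared or without those 3 libraries. The fixed block, which takes gate differences from mouse 5 alone, added 1 call for Sca1-high minus basal cells, Snord87. It changed no call in the other comparisons. All 3 calls held with no filter, a filter at the median of the table and mouse as a random block.

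With single libraries left out, an arm could keep 1 library, which was then assumed to vary like the other groups. The counts ranged over 0 to 2 for basal minus luminal, 0 to 1 for Sca1-high minus luminal, for Sca1-high minus basal and for LY6D in luminal and in basal cells, and stayed at 0 for LY6D in Sca1-high cells, over the gates and between gates. The Snora33 LY6D difference ranged over 3.49 to 4.58 (adjusted p = 0.0486 to 0.188) and was lost without any 1 of 10 libraries, that is all but the Sca1-high LY6D+ ones. The Snora33 gate difference ranged over 1.68 to 2.22 and was lost without 7 of the 12: luminal LY6D+ of mouse 4 or 5, luminal LY6D- of mouse 5, either Sca1-high LY6D- library, basal LY6D+ of mouse 3 or basal LY6D- of mouse 5 (highest adjusted p = 0.118). The Snora44 gate difference ranged over 2.36 to 3.18 and was lost without 8: either luminal LY6D+, either Sca1-high LY6D- or any basal library (highest adjusted p = 0.125). Calls that appeared were Snord73a without luminal LY6D+ of mouse 4, which leaves 1 library at 7.94 in that group (LY6D in luminal cells 5.03, adjusted p = 0.00982; basal minus luminal -2.56, 0.0106; Sca1-high minus luminal -2.29, 0.0220), Snora74a without Sca1-high LY6D- of mouse 5, and Snora44 for Sca1-high minus basal without basal LY6D- of mouse 3 (-3.09, adjusted p = 0.0454).

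Class medians moved by less than their spread between libraries in all 152 alternatives other than leaving out 1 library, although some medians near 0 changed sign. That spread, the SD within groups, was 0.33 for Snora and 0.29 for Snord genes. The medians themselves lay between -0.21 and 0.31, so this limit does not show that they are stable. With 1 left out, the Snord median for LY6D in luminal cells ranged over -0.023, without LY6D+ of mouse 5, to 0.31, and in basal cells over -0.052 to 0.25, the highest without LY6D- of mouse 5. Of 53 uncalled differences of named members, 36 moved by over 1.5 times or turned sign when 1 library was left out. The LY6D differences of 3 uncalled members turned sign, which the loss of 1 of 2 libraries made: Snora15 in Sca1-high cells (-0.21 without LY6D+ of mouse 1, up to 4.37), Snora20 in basal cells (0.20 and 1.01 without LY6D+ of mouse 3 or LY6D- of mouse 5, down to -3.31) and Snora75 in basal cells (0.23 and 0.43 without LY6D+ or LY6D- of mouse 3, down to -5.43).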

Other observations

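Another 43 probe sets named a snoRNA together with other symbols and were used in no comparison. They held 28 distinct rows of values, and 27 snoRNA symbols appeared on these probe sets only. Among them 16 probe sets of Snord116l1, Snord116l2 and Gm26504, copies of the imprinted Snord116 cluster that is known for expression in neurons, shared 1 row of values. That row stood at 8.30 in Sca1-high LY6D- cells of mouse 5 and between 2.91 and 3.96 in the other 11 libraries. The mean over 4 neural markers lay between 4.39 and 4.91 in Sca1-high, 3.91 and 4.02 in basal and 4.66 and 5.13 in luminal libraries. A part of neural cells in that row was not tested.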
